A study of Mus musculus with 3 samples.

Results

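The 9 genes described here, Fabp1, Fabp2, Rbp2, Apob, Mttp, Apoa1, Apoa4, Apoc2 and Apoc3, encode proteins with which absorptive cells of the small intestine, the enterocytes, carry dietary fat and vitamin A and export them. They were taken by name for this role, 9 of the 32285 genes counted, with earlier results of these data known, and no measured value entered the rule. They were measured by single-cell RNA sequencing in mouse small intestinal organoids (gut epithelium kept as small hollow bodies in a gel), with 1 library in each of 3 groups. All mice were C57BL/6, were 7 to 8 weeks old when treated and received tamoxifen, 2 doses of 2 mg, and the organoids were taken at passage 3, day 6. WT organoids came from mice labelled wild type, for which the labels name no Cre or floxed allele, 21 days after tamoxifen. LApc organoids came from Lgr5-CreERT2;Apc fl/fl mice, 29 days after tamoxifen. In these mice a tamoxifen-activated Cre recombinase, expressed from the locus of the stem cell gene Lgr5, is meant to delete Apc, whose protein holds Wnt signalling down. LApcL organoids, taken 21 days after tamoxifen, came from mice that carry Lef1 fl/fl beside Lgr5-CreERT2 and Apc fl/fl, so that Lef1, a transcription factor of the Wnt pathway, is meant to be lost as well. The study asked what the loss of Lef1 does in Apc-deleted intestinal organoids, with WT as the control.

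Each cell was read as unique molecular identifiers (UMIs), each of which tags 1 captured RNA molecule at its 3′ end. Levels were read in deep cells: barcodes found in 1 library only, with at least 10000 UMIs and at most 20% of them mitochondrial. These were 1208 of 11411 WT barcodes, 2161 of 10706 LApc barcodes and 1931 of 12068 LApcL barcodes, with medians of 38074, 34377 and 32584 UMIs and with 48895147, 90864428 and 80504226 UMIs in all. The level of a gene is its UMIs summed over the deep cells of a library, per 1e6 UMIs of those cells (CPM). With 1 library per group no test between groups was possible, so each fold below compares libraries, and the 95% intervals cover counting error only. Genotype, animal, sex, days after tamoxifen and culture cannot be told apart in this design. Xist, the RNA made from the inactive X chromosome, measured 0.920, 1281 and 0.261 CPM in WT, LApc and LApcL. Between 27.3% and 30.3% of the barcodes of each library recurred in another library, and 3195 recurred in all 3. These shared barcodes were rich in endothelial markers, with 4132 to 4440 CPM summed over 6 genes against 13.0 to 57.1 CPM in deep cells, and they were kept out of all levels. Where they came from was not tested, so their levels of the 9 genes, given for comparison, may be free RNA of the organoids or RNA of those cells. Deep cells were epithelial by their markers, with 4345, 7210 and 7903 CPM summed over Epcam, Krt8, Krt18, Cdh1, Cldn7 and Krt19. The targeted genes could not check the labels, since 3′ counts can lie outside a deleted part. Apc was at 20.0, 88.5 and 95.4 CPM, and Lef1 at 0.961, 72.0 and 47.8 CPM in WT, LApc and LApcL.

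Fatty acids and monoglycerides that enter an enterocyte are bound by cytosolic carriers, made back into triglyceride in the endoplasmic reticulum and loaded onto apolipoprotein B to form chylomicrons, the particles that leave the cell for the lymph. Small apolipoproteins on the particle surface then set how fast its fat is released in the body. In the living gut these genes are on in differentiated villus cells and low in the crypt, where stem and dividing cells lie.

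By the GENCODE annotation of GRCm38 (mm10, the build of the files), all 9 genes are protein coding and have 3 to 29 exons. Fabp1 (ENSMUSG00000054422) lies at chr6:71199827-71205023 and Fabp2 (ENSMUSG00000023057) at chr3:122895072-122899506, each on the plus strand. Rbp2 (ENSMUSG00000032454) lies at chr9:98486115-98509781 on the plus strand. Apob (ENSMUSG00000020609) spans chr12:7977648-8016835 on the plus strand in up to 29 exons, and Mttp (ENSMUSG00000028158) spans chr3:138089854-138144968 on the minus strand in up to 20 exons. Apoa1 (ENSMUSG00000032083), Apoc3 (ENSMUSG00000032081) and Apoa4 (ENSMUSG00000032080) sit side by side within 14880 bases, at chr9:46228580-46230466, chr9:46232933-46235636 and chr9:46240696-46243459, with Apoc3 on the minus strand and its 2 neighbours on the plus strand. Apoc2 (ENSMUSG00000002992) lies at chr7:19671579-19677941 on the minus strand. The annotation places other genes over parts of Fabp2, Apoa4, Apoc2, Mttp and Rbp2. Of these only opposite-strand genes were counted in the files, and whether the counting used strand is not given in the sources used here. The counted one with the most UMIs was Trmt10a over the start of Mttp, at 8.12, 20.9 and 24.0 CPM in WT, LApc and LApcL.

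Since the 9 genes varied together from cell to cell in WT, as described further on, the bases before their start sites were searched for letters of factors known to act in enterocytes. RefSeq tables on GRCm38.p6 gave a start for 8 of the 9 genes, and Apoc3 was not searched. Annotated exons cover all of the 100 bases nearest that start for Mttp and Apoa4, 52 for Fabp1, 50 for Apoa1 and 29 for Apob. For these genes the search thus read exon bases in part. In the 250 bases before the start, on both strands, TTTATNG, the letters of the caudal factors Cdx1 and Cdx2, occurred before Fabp1, Fabp2, Rbp2, Apob and Apoc2, and in 9.74% of 32544 promoters. TATAAA, the TATA box, occurred before Fabp1, Rbp2 and Apob, and in 12.3% of promoters. GATAAG, the GATA factor letters, occurred before Apob only and in 6.42% of promoters. CAAAGTC, a short form of the Hnf4 letters, occurred before Rbp2 only and in 3.87%. The longer CAAAGTCCA and the Hnf1 letters GTTAATNAT occurred before none of the 8, and in 0.387% and 0.744% of promoters. The stretches before Fabp2, Fabp1, Rbp2 and Apob show where such letters stand, and hold no annotated exon, each on the plus strand. Those of Fabp2, Fabp1 and Apob end where the annotated gene begins, while that of Rbp2 lies within the annotated gene, just before its RefSeq start at 98490537. They lie at chr3:122894972-122895071, chr6:71199779-71199826, chr9:98490437-98490536 and chr12:7977577-7977647. Capitals mark TTTATNG or TATAAA on either strand. The run CTATAAA before Rbp2 and Apob holds both, since read on the other strand it is TTTATAG, while TTTATA before Rbp2 is TATAAA on the other strand only. The TATAAA of Fabp1 lies within the annotated gene and is not shown. A match is a description of letters and not a site of binding.
Fabp2: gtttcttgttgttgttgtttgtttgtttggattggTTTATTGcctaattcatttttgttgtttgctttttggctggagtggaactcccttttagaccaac
Fabp1: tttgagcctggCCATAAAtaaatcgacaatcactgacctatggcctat
Rbp2: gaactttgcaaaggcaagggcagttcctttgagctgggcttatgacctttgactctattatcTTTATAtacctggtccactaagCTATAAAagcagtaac
Apob: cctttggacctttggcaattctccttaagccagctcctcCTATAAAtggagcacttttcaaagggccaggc

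In WT deep cells the 9 genes together made up 1.27% of all UMIs, or 12709 CPM, and most of that was Fabp1. Levels of different genes are set side by side here as 3′ UMIs, which are counted once per molecule and were not divided by gene length. Among the cytosolic carriers, Fabp1, the liver-type fatty acid binding protein, stood at 9137 CPM (95% interval 9110 to 9164) and ranked 6 of all genes. Fabp2, the intestinal fatty acid binding protein, stood at 649 CPM (642 to 656), and Rbp2, the cellular retinol binding protein that holds vitamin A in enterocytes, at 508 CPM (502 to 514). The 2 proteins at the core of chylomicron assembly had almost the same level. Apob, the structural protein of the particle, stood at 363 CPM (358 to 368), and Mttp, the microsomal transfer protein that loads lipid onto it, at 359 CPM (353 to 364). Of the surface apolipoproteins, Apoa4 was highest at 649 CPM (642 to 656). It was followed by Apoc2, which activates lipoprotein lipase, at 447 CPM (441 to 453), and by Apoa1, the main protein of high density lipoprotein, at 388 CPM (383 to 394). Apoc3, which inhibits lipoprotein lipase, was lowest at 210 CPM (206 to 214). In this order the neighbours Fabp2 and Apoa4 did not differ beyond counting error, nor did Apob and Mttp, while the other neighbours had intervals that did not overlap. In a library sum, fewer cells of a type and less RNA per cell cannot be told apart.

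**Figure D1:**
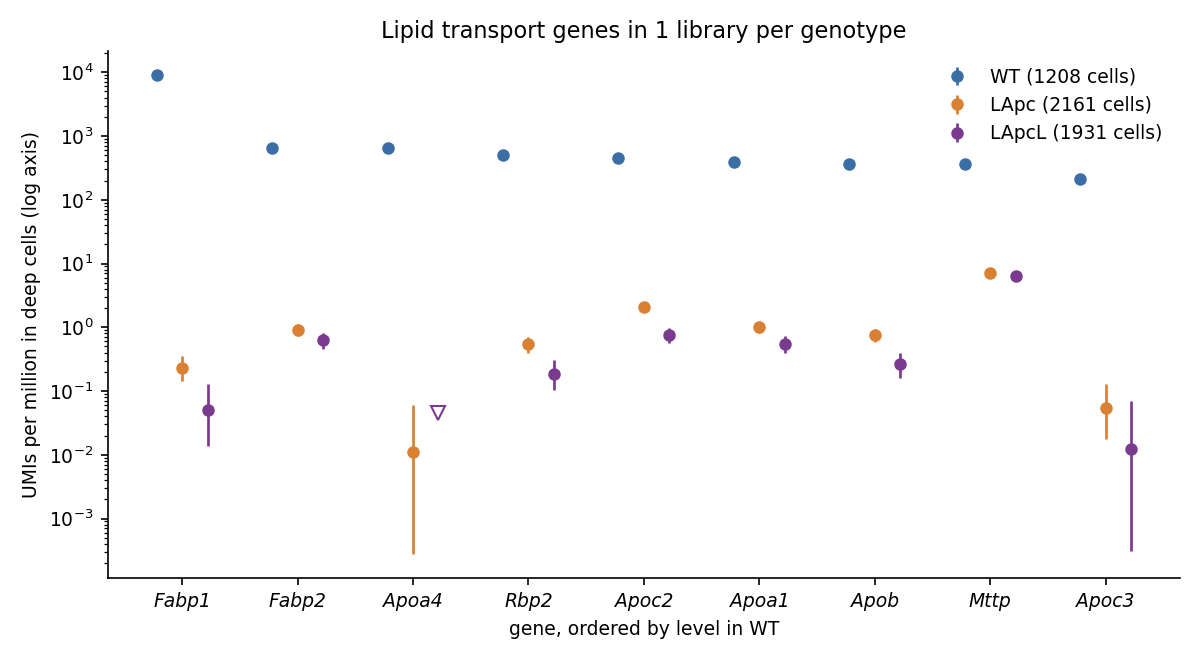
Level of each of the 9 genes in deep cells of the WT, LApc and LApcL libraries, in CPM on a log axis, with bars for the 95% counting interval (1 library per group). Every gene is at 210 CPM or more in WT and at 7.03 CPM or less in LApc and LApcL. Apoa4 in LApcL, with 0 UMIs, is drawn as an open triangle at the upper limit of its interval, 0.0458 CPM.

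Nearly every WT cell held some of these RNAs. All 9 genes had a UMI in 540 of 1208 cells (44.7%), at least 3 of them in 1176 cells, and 2 cells had none. The share of cells with a UMI was 94.1% for Mttp (95% interval 92.6 to 95.4), 93.1% for Fabp2, 92.3% for Apob, 90.1% for Fabp1 (88.2 to 91.7), 86.7% for Apoa4, 80.5% for Rbp2, 71.9% for Apoc2, 70.0% for Apoc3 and 62.5% for Apoa1 (59.7 to 65.2). Thinned to 10000 UMIs per cell, so that depth was equal, these shares were 82.7% for Mttp, 75.7% for Fabp1 and 43.0% for Apoa1. Thus Apob and Mttp, with low summed levels, were met in more cells than Apoa1, Apoc2 and Rbp2, which had higher sums.

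Droplets can also take up free RNA from other cells. In the WT library 3216 shared barcodes had under 10000 UMIs and at most 20% of them mitochondrial. Their markers were mainly endothelial (4529 CPM, against 23.5 CPM of epithelial markers). Whether they make any of the 9 genes themselves was not tested, so they are not taken as free of the genes. Fabp1 stood there at 13.4 CPM, Mttp at 11.7 CPM, Apob at 4.43 CPM and Apoa4 at 3.44 CPM, and the other 5 genes at 1.23 to 2.09 CPM. Mttp stood at like levels, 10.9 and 8.41 CPM, in such barcodes of LApc and LApcL. Only 9 shared WT barcodes were deeper, and they held 2552 of the 2661 Fabp1 UMIs of the 3225 shared barcodes within the mitochondrial limit, so those 9 are kept out of the comparison, a choice made after seeing the data. Thinned to 1000 UMIs per barcode, 52.8% of deep WT cells had a Fabp1 UMI, against 29 of the 2820 shared barcodes with that many UMIs (1.03%), the 9 deeper ones included. The unthinned medians were 38074 UMIs in the deep cells and 2164 UMIs over the 3225 shared barcodes. For Mttp these shares were 27.1% and 1.10%, for Apoa1 16.4% and 0.177%, and for the other 6 genes the shared barcodes had 0.106% to 0.248%. Every one of the 9 genes was thus higher in WT deep cells than in the shared barcodes.

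The genes differed in how evenly cells carried them. In thinned cells Mttp was the most even, with a mean of 3.52 UMIs, a median of 3.00 and a coefficient of variation over cells of 0.940. Apob followed with a coefficient of 1.13. Fabp2, Apoa4, Fabp1 and Rbp2 had coefficients of 1.49, 1.53, 1.60 and 1.62, and Apoc2, Apoc3 and Apoa1 had 2.20, 2.83 and 3.39. The 120 cells richest in a gene held 30.2% of its UMIs for Mttp and 78.1% for Apoa1. The range for Apoa1 ran from a median of 0 UMIs to a highest cell of 208. Fabp1 had a mean of 84.7 UMIs but a median of 8.00, with quartiles of 1 and 128 and a highest cell of 685. It was at 0 in 294 cells (24.3%), while 328 cells (27.2%) with 100 UMIs or more held 88.8% of all Fabp1 UMIs. The RNAs of the lipid loading pair, Mttp and Apob, were spread over most cells, and those of Apoa1, Apoc2 and Apoc3 were concentrated in fewer.

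**Figure D2:**
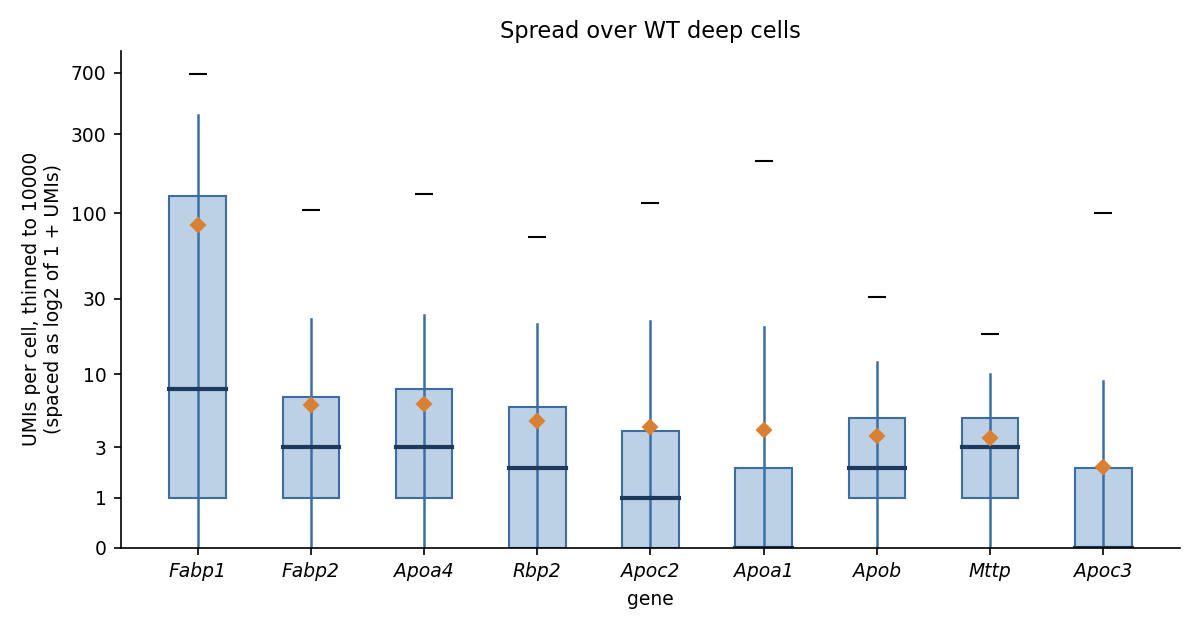
UMIs per cell, thinned to 10000 UMIs, for each gene over 1208 deep WT cells (1 library), on an axis spaced as log2 of 1 + UMIs. Boxes span the quartiles with a bar at the median, vertical lines the 5th to 95th percentiles, short dashes the highest cell and diamonds the mean, and Mttp and Apob are narrow, with 95th percentiles of 10 and 12 UMIs, while Fabp1 reaches 389 at its 95th percentile.

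Cells were then divided into 5 ranges of equal size (241 or 242 cells) by the summed UMIs of 20 brush border genes, such as Vil1, Alpi, Sis and Lct, which hold none of the 9 and mark absorptive differentiation. These are ranges of a score and not cell types, and neighbouring ranges met at scores of 8, 17, 30 and 46 to 47 UMIs. All 9 genes were at least 2-fold higher in the highest than in the lowest range, which held for 15.4% of the 8255 genes tested. From the lowest range to the highest, mean Fabp1 was 10.4, 29.9, 75.1, 135 and 173 UMIs per cell, a 16.7-fold difference (95% counting interval 16 to 17.3). Fabp2 had the flattest course, at 2.88, 3.31, 3.64, 6.00 and 15.1 UMIs (5.26-fold, 4.85 to 5.71). Apoa1 had the steepest, at 0.0826, 0.298, 1.07, 2.76 and 16.2 UMIs (196-fold, 126 to 321). Between them stood Apoc2 at 45.2-fold, Apoc3 at 29.5-fold, Apoa4 at 22.3-fold, Rbp2 at 14.1-fold, Apob at 9.38-fold and Mttp at 7.68-fold.

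The genes reached their level at different points of the score. Fabp1 differed 13.0-fold between the lowest and the 4th range and only 1.28-fold between the 4th and the highest. Apoa1 differed 5.86-fold and Apoc3 4.19-fold over that last step, and Fabp2 differed 2.52-fold there against 2.08-fold over the first 4 ranges. Fabp2 was present in 76.4% and Fabp1 in 56.6% of the lowest-range cells, against 6.20% for Apoa1. The fold for Apoa1 rests on 20 UMIs in the lowest range (11.7 CPM unthinned). Markers of other states moved with the score. The summed stem cell markers went from 5.75 UMIs per cell in the lowest range to 0.228 in the highest, those of dividing cells from 6.52 to 0.282 and those of goblet cells from 32.5 to 4.67. Enteroendocrine markers were highest in the 4th range, at 51.2 UMIs per cell against 7.53 in the lowest and 10.8 in the highest. Without 72 cells rich in goblet, enteroendocrine or Paneth markers, all 9 genes stayed at least 2-fold higher in the highest range. The smallest fold was then 5.37, beside 5.26 over all deep cells, and this setting was chosen after seeing the data. The part of the stem and dividing cell markers was not tested.

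**Figure D3:**
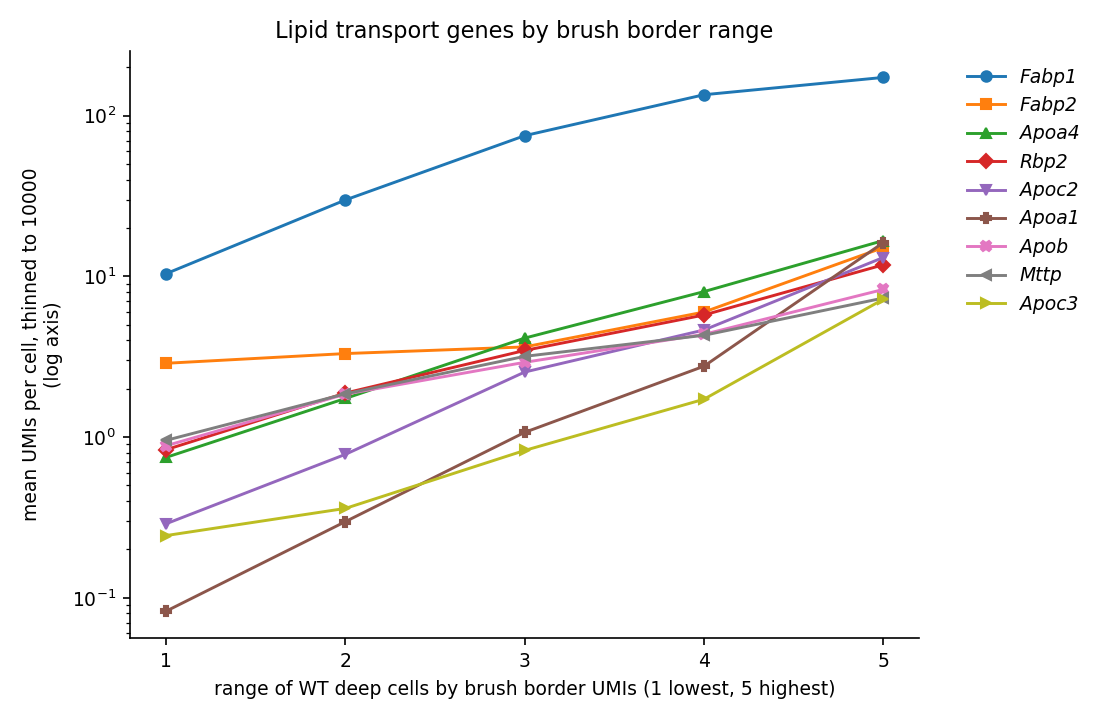
Mean UMIs per cell (thinned to 10000, log axis) of each gene in 5 ranges of deep WT cells ordered by summed brush border UMIs. All 9 genes are higher in the highest range than in the lowest, by 5.26-fold for Fabp2 to 196-fold for Apoa1, and the Fabp1 mean is 135 in the 4th range and 173 in the highest.

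Within the WT library the 9 genes varied together. Over 1208 thinned cells Pearson's r of log(1 + UMIs) was positive in 36 of 36 pairs, with a median of 0.55 and a range of 0.35 to 0.71, and it was 0.5 or more in 30 pairs. These values describe cells that share a library, a depth and a base composition, and carry no p. The closest pairs were Fabp1 with Rbp2 and Apoc2 with Apoa4, each at 0.71, followed by Fabp1 with Apoa4 at 0.70 and Fabp2 with Rbp2 at 0.69. Apoa4 had the highest median r with the other 8, 0.65, and Apob the lowest, 0.50. Apob and Mttp, which act on the same particle, had an r of 0.58. Apoa1, Apoc3 and Apoa4, neighbours on chromosome 9, had r of 0.66 for Apoa1 with Apoc3 and for Apoc3 with Apoa4, and of 0.58 for Apoa1 with Apoa4. These values lay within the range of pairs on different chromosomes.

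The correlation was weaker among cells of like brush border score. Within the 5 ranges, from lowest to highest, the median r over pairs was 0.10, 0.22, 0.30, 0.35 and 0.37. Few UMIs per cell also limit r in the lowest range, and the parts of depth and score were not separated. In the lowest range the pair Fabp1 and Rbp2 still had an r of 0.54, the only one of 36 at 0.5 or more. In the highest range Fabp2 with Rbp2 had 0.71 and Fabp2 with Apoc3 0.62, whereas Fabp1 with Apoa1 had −0.03.

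The pair Fabp1 and Apoa1 had the lowest r of the 36 pairs over all cells, 0.35, and in the highest range. Cells with 100 Fabp1 UMIs or more had means of 14.1 Apoa4, 12.8 Fabp2, 11.9 Rbp2 and 11.2 Apoc2 UMIs, against 1.27, 1.92, 0.748 and 0.398 in cells with no Fabp1 UMI. Mean Apoa1 was 1.66 UMIs in cells without Fabp1, 2.54 at 1 to 9 Fabp1 UMIs, 6.92 at 10 to 99 and 5.50 at 100 or more. Of the 241 cells of the highest range, 50 (20.7%) had more Apoa1 than Fabp1 UMIs, and in those the medians were 21.5 Apoa1 and 3.00 Fabp1 UMIs. So cells of high brush border score included some that were rich in Apoa1 and poor in Fabp1. These cells were described after the low r had been seen.

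**Figure D4:**
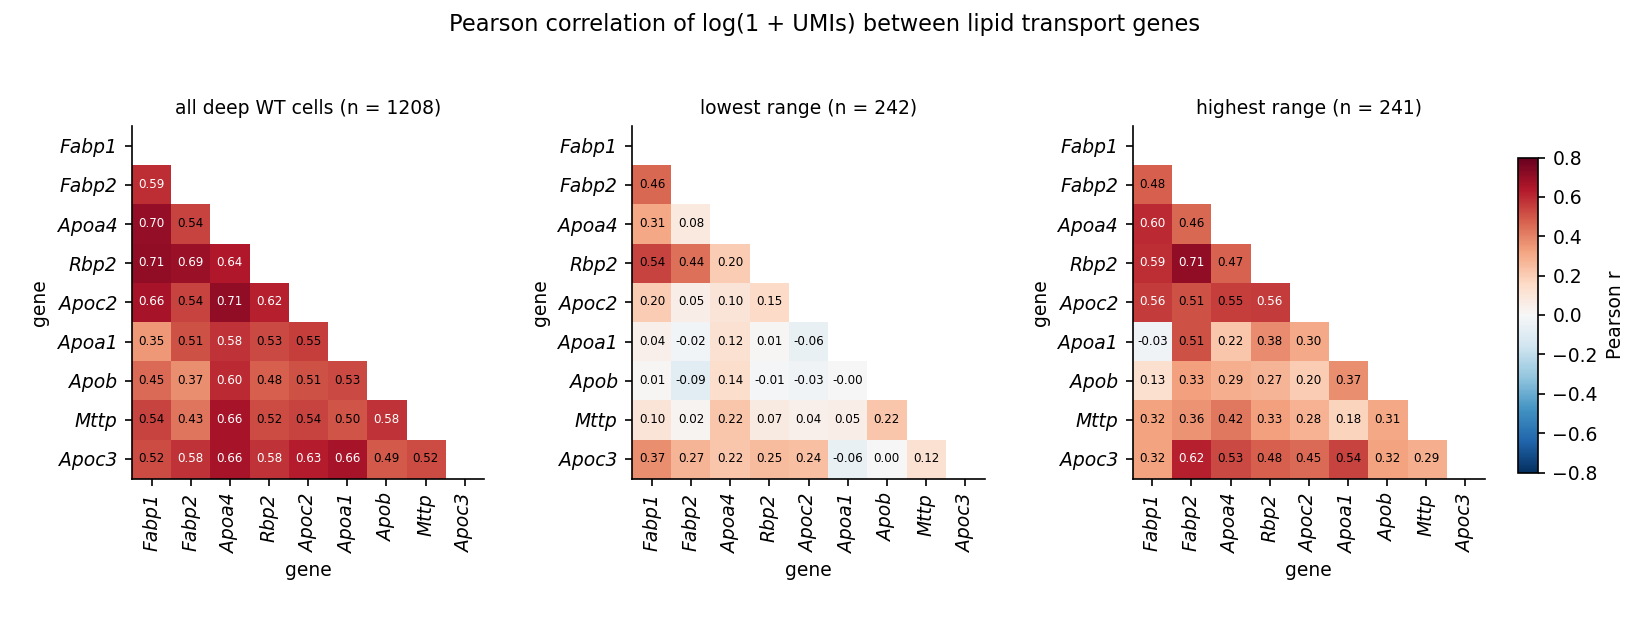
Pearson's r of log(1 + thinned UMIs) for the 36 pairs of the 9 genes, over all 1208 deep WT cells, over the 242 cells of the lowest and over the 241 cells of the highest brush border range (1 library). Over all cells every pair lies between 0.35 and 0.71, and in the highest range Fabp1 with Apoa1 is at −0.03.

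Of 2457 other genes with at least 0.5 thinned UMI per cell, the 10 closest to the summed UMIs of the 9 over WT deep cells had r of 0.66 to 0.75. Since Fabp1 makes up most of that sum, closeness here is mainly to Fabp1. Those described here were Gsta1, a glutathione transferase (0.75), Leap2, a secreted peptide of the liver and gut (0.73), Khk and Tkfc, which act in fructose breakdown (both 0.73), Prxl2a (0.70), the ferritin heavy chain Fth1 (0.68), Prap1 (0.67), Cyp4f14, a cytochrome P450 (0.66), and Gapdh (0.66). Most of the 10 were also far lower in the mutant libraries. In WT, LApc and LApcL, Gsta1 was at 2446, 1.39 and 2.99 CPM. Leap2 was at 268, 0.0330 and 0.0373 CPM, and Khk at 1048, 10.9 and 9.84. Fth1, Gapdh and Prxl2a differed less, at 7106, 4381 and 1198 CPM, at 3999, 2588 and 2622 CPM and at 771, 214 and 353 CPM.

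In the LApc library all 9 genes were lower than in WT, by 51.0-fold or more. The call used here, at least 4-fold lower, was met by 9 of 9, against 5.54% of the 9068 genes that reached 10 CPM in either library, while 9.22% of those genes stood at least 4-fold above WT. Over the 9 genes the log2 ratio of LApc to WT had a median of −9.47 (range −15.85 to −5.67), beside 0.52 over all genes tested. In LApcL 9 of 9 genes met the call too, against 5.75% of 9043 genes lower and 8.79% higher, with a median of −10.44 (−17.49 to −5.81) beside 0.54 over all genes. Together the 9 genes fell from 12709 CPM in WT to 12.6 CPM in LApc and 8.81 CPM in LApcL. No UMI of any of them was found in 1438 of 2161 LApc cells (66.5%) and in 1444 of 1931 LApcL cells (74.8%). The most met in 1 mutant cell was 4 of the 9 genes, in 1 LApc cell.

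Among the carriers, Fabp1 went from 446743 UMIs in WT to 21 in LApc (0.231 CPM) and 4 in LApcL (0.0497 CPM), and was 39534-fold lower in LApc (95% counting interval 25862 to 63866). The 4 LApcL UMIs came from 1 cell, so the 183887-fold difference to WT (71819 to 674900) rests on it. Fabp2 went from 649 CPM to 0.913 CPM in LApc (710-fold lower, 573 to 892) and 0.621 CPM in LApcL (1045-fold lower). Rbp2 went from 508 CPM to 0.539 CPM (942-fold lower, 712 to 1274) and 0.186 CPM (2726-fold lower). Both carriers of fatty acids and the carrier of retinol were thus under 1 CPM in each mutant library.

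Of the assembly proteins, Apob went from 363 CPM in WT to 0.748 CPM in LApc (485-fold lower, 382 to 625) and 0.261 CPM in LApcL (1391-fold lower). Mttp had the smallest fold of all 9. It stood at 7.03 CPM in LApc and 6.38 CPM in LApcL against 359 CPM in WT, which was 51.0-fold lower (47.1 to 55.3) and 56.2-fold lower (51.4 to 61.4). A Mttp UMI was found in 23.1% of the cells in LApc (interval 21.3 to 24.9) and in 20.6% in LApcL (18.8 to 22.5), mostly a single one.

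Of the surface apolipoproteins, Apoa4 was the most completely absent. Its 31720 WT UMIs compare with 1 UMI in LApc, a ratio of 58947 (10579 to 2328353), and with 0 in LApcL. Set to a floor of 3 counts, or 0.0373 CPM, the LApcL level was 17409-fold lower, and the counting interval of that fold starts at 14157. Apoc3 had 10286, 5 and 1 UMIs in WT, LApc and LApcL, and was 3823-fold lower in LApc (1638 to 11777). Its ratio of WT to LApcL was 16936 (3039 to 668983). Apoa1 went from 388 to 1.02 and 0.547 CPM (379-fold and 710-fold lower). Apoc2 went from 447 to 2.06 and 0.745 CPM (217-fold and 599-fold lower), which in LApc was 0.461% of its WT level, the largest share after Mttp. The WT values of all 9 genes lay far outside the counting intervals of both mutant libraries.

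The mutant libraries were also set beside the 242 WT cells with the lowest brush border score, which hold the most stem and dividing cell markers. All 9 genes were at least 4-fold lower than in those cells in LApc, against 3.02% of all genes tested, and in LApcL, against 2.96%. The median log2 ratios were −7.29 and −8.77, beside 0.31 and 0.35 over all genes. Fabp1 stood at 1028 CPM in these WT cells, 4447-fold above LApc, Fabp2 at 271 CPM, 296-fold above, and Apoa4 at 70.0 CPM, with a ratio to the single LApc UMI of 6358 (1137 to 251489). The differences to LApc were smallest for Apoa1, at 11.7 CPM and 11.5-fold above LApc, Mttp at 93.2 CPM and 13.3-fold, and Apoc2 at 31.1 CPM and 15.1-fold. Those to LApcL were smallest for Mttp at 14.6-fold, Apoa1 at 21.5-fold and Apoc2 at 41.7-fold.

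Between the mutant libraries the 8 genes with enough UMIs for a ratio were all lower in LApcL than in LApc, with a median log2 ratio of −1.49 beside 0.05 over all genes, and Apoa4 had 1 and 0 UMIs. Fabp1 (4 and 21 UMIs) and Apoc3 (1 and 5 UMIs) were at least 4-fold lower, 2 of 8 genes against 1.45% of all 8739 genes tested, and both were below the 10 CPM asked of those genes. With no minimum level 6.11% of all genes met that call. The count of 2 became 0 with at most 10% mitochondrial UMIs, with the highest doublet scores removed and with a pseudocount of 1 CPM, and 1 without each gene's richest cell. The log2 ratios were −2.22 for Fabp1 (−4.22 to −0.65), −1.53 for Rbp2 (−2.47 to −0.67), −1.52 for Apob (−2.30 to −0.80), −1.47 for Apoc2 (−1.91 to −1.04), −0.91 for Apoa1 (−1.46 to −0.37) and −0.56 for Fabp2 (−1.09 to −0.03). The intervals of Mttp, −0.14 (−0.31 to 0.03), and of Apoc3, −2.15 (−7.71 to 1.01), included 0. With the highest doublet scores removed Fabp2 was at −0.03, Fabp1 at −1.43 and Rbp2 at −0.78, and without the richest cell Fabp2 was at −0.18 and Apoc3 at −0.24. All levels compared here were at 7.03 CPM or less, and with a pseudocount of 1 CPM the median was −0.24.

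Not all of these remaining levels were above those of the shared barcodes. In the shared barcodes under 10000 UMIs of the same libraries Mttp stood at 10.9 CPM in LApc and 8.41 CPM in LApcL, above the deep cells and close to the 11.7 CPM of those barcodes in WT. Rbp2 stood there at 0.897 and 1.48 CPM, also above the deep cells. These levels rest on 61 and 51 Mttp UMIs and on 5 and 9 Rbp2 UMIs in LApc and LApcL. No counting interval was computed for the shared barcodes, so above and below in this paragraph compare the values alone. The same barcodes held the summed epithelial markers at 111 CPM against 7210 CPM in deep cells (LApc) and at 109 against 7903 CPM (LApcL). Whether the Mttp and Rbp2 UMIs of the deep cells were made by those cells was not tested. Fabp2, Apob and Apoc2 had 0 UMIs in these barcodes in both libraries, which at a floor of 3 counts allows up to 0.538 CPM in LApc and 0.495 CPM in LApcL. Deep cells stood above that limit for all 3 genes in LApc, at 0.913, 0.748 and 2.06 CPM, and in LApcL for Fabp2 (0.621 CPM) and Apoc2 (0.745 CPM) but not for Apob (0.261 CPM). Fabp1 had 0 UMIs in the LApc barcodes too, and at 0.231 CPM in deep cells it was below what that depth could show. In LApcL it had 2 UMIs in those barcodes (0.330 CPM), above the 0.0497 CPM of deep cells. Apoa1 had 4 and 1 UMIs there (0.718 CPM in LApc and 0.165 CPM in LApcL), below the deep cells of each library.

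Some of the remaining UMIs sat in few cells, while others were spread. The 639 Mttp UMIs of LApc came from 499 cells and the 93 Apoa1 UMIs from 83 cells. Of the 83 Fabp2 UMIs in LApc, 24 came from 1 cell, which held 24 UMIs of the division marker Mki67, 14 of the Wnt target Axin2, none of the brush border enzyme gene Sis and 1 UMI of the other members. Of the 68 Apob UMIs in LApc, 19 and 17 came from a pair of cells, also without Sis. In LApcL the cell with most Apob UMIs, 4, held 644 UMIs of Sct, which encodes the gut hormone secretin. These single cells were looked up after the levels were known.

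The remaining Apoc2 UMIs were concentrated in cells rich in Paneth cell markers. In LApc 40 of 2161 cells drew at least 1% of their UMIs from Lyz1, Defa24, Defa17, Mmp7, Itln1 and Ang4, and those cells held 81 of 187 Apoc2 UMIs (43.3%), at 73.3 CPM against 1.18 CPM in the other cells. One of them held 27. In LApcL 81 of 1931 cells met the same limit and held 51 of 60 Apoc2 UMIs (85.0%), at 21.1 against 0.115 CPM. With limits of 0.5% and 2% these shares were 43.3% and 37.4% in LApc and 85.0% and 83.3% in LApcL. Part of the Paneth-rich cells also drew at least 1% of UMIs from goblet markers, 13 in LApc and 40 in LApcL. Apoc2 stood at 40.6 CPM and 29.7 CPM in those, and at 88.2 CPM and 15.0 CPM in the Paneth-rich cells that did not. By goblet markers alone, 14 LApc cells held 14 of 187 Apoc2 UMIs, at 37.6 against 1.91 CPM. In LApcL 42 such cells held 30 of 60, at 27.4 against 0.378 CPM. The goblet-rich cells that were not Paneth-rich, 1 in LApc and 2 in LApcL, had 0 Apoc2 UMIs. In WT only 8 cells were Paneth-rich, with Apoc2 at 48.4 CPM against 449 CPM in the other cells, so the pattern was not seen there. The summed Paneth markers themselves were at 235, 1379 and 3453 CPM in WT, LApc and LApcL.

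Within WT the secretory cells carried less of most of these RNAs. In 35 cells rich in enteroendocrine markers Fabp1 stood at 749 CPM against 9298 CPM in the other cells, while Apob stood at 229 against 366 CPM. In the 31 cells at or over 2% of such UMIs Fabp1 stood at 183 CPM and Apob at 225 CPM, so the Fabp1 level rests on the few cells near the limit. In 35 goblet-rich cells Fabp1 was at 3612 CPM and Fabp2 at 501 CPM, and in the 8 Paneth-rich cells at 96.8 and 216 CPM. Several of the 9 genes are also strong liver genes. The hepatocyte markers Alb, Ttr, Serpina1a, Ahsg, Fgb and Cyp2e1 summed to 26.0 CPM in WT deep cells, of which Ttr gave 25.4, and 5 of the 6 were under 1 CPM.

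Genes that work beside the 9 were read from lists of their pathway, with the same 4-fold call over genes at 10 CPM or more. Over all genes tested, as given above, 5.54% (LApc) and 5.75% (LApcL) were lower and 9.22% and 8.79% higher, which is what the small counts of a list stand beside. Of the brush border genes 15 of 18 were lower in LApc and 15 of 18 in LApcL, none was higher, and the highest WT levels were those of Sis (1202, 0.275 and 0.211 CPM in WT, LApc and LApcL) and the glucose transporter gene Slc5a1 (529, 24.8 and 35.7 CPM). Of the fatty acid uptake and activation genes, 3 of 9 were lower in LApc, namely the transporter Slc27a2, the acyl-CoA synthetase Acsl5 and the acyl-CoA binding protein Dbi (4112, 934 and 1126 CPM). In LApcL 2 of 9 were lower, without Dbi. The synthetase gene Acsl4 was higher in both, at 6.93, 35.1 and 31.4 CPM.

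Of the genes that rebuild triglyceride and form lipid droplets, 7 of 16 were lower in LApc and in LApcL, and none was higher. They were the acyltransferase genes Mogat2, Dgat1, Dgat2 and Gpat3 and the droplet protein genes Plin2, Cideb and Cidec. Dgat1 went from 140 to 15.2 and 16.4 CPM, Plin2 from 239 to 48.4 and 40.6 CPM, and Cidec from 34.6 to 0.231 and 0.224 CPM. Plin3, another droplet protein gene, stood at 155, 77.2 and 93.0 CPM. Of the 16 genes of particle assembly and export 3 were lower in both libraries and none was higher: Tm6sf2 (76.1, 0.418 and 0.186 CPM) and Pla2g12b (24.9, 0.187 and 0.646 CPM), which act in lipoprotein secretion, and the vesicle coat gene Sec23a (56.3, 12.8 and 12.9 CPM). P4hb, the partner subunit of Mttp, stood at 456, 262 and 296 CPM, and Sar1b, a vesicle GTPase needed for chylomicron export, at 184, 127 and 98.1 CPM, both less than 4-fold apart. So Mttp was 51.0-fold lower in LApc while the gene of its partner subunit was 1.74-fold lower. The difference between lists was not tested.

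Of 10 genes of sterol absorption and export, 5 were lower in LApc, namely the cholesterol transporter Npc1l1 (60.9, 0.176 and 0.0994 CPM), the exporters Abcg5 and Abcg8, Scarb1 and the esterifying enzyme Soat2, and 6 were lower in LApcL, with Abca1 (16.3, 23.7 and 2.96 CPM). Retinoid genes went both ways. In LApc 2 of 8 were lower and 3 higher, and in LApcL 2 of 7 were lower and 2 higher. Bco1, which splits beta-carotene, went from 81.0 to 0.935 and 0.733 CPM, and Rdh7, a retinol dehydrogenase gene, from 27.5 to 0.0330 and 0.0870 CPM. Isx, a homeobox repressor of Bco1 and Scarb1, had 1 UMI in WT and stood at 70.9 CPM in LApc and 135 CPM in LApcL, with a log2 ratio of LApc to WT of 11.76 (9.28 to 17.06). The retinol receptor gene Stra6 had 0 UMIs in WT, and stood at 46.2 CPM in LApc and 27.5 CPM in LApcL. With WT set to the floor of 3 counts it was 753-fold higher in LApc, a log2 ratio of 9.56 whose counting interval starts at 9.26. Rbp4, the serum retinol carrier, was higher in LApc only, at 8.34, 47.6 and 3.20 CPM, and Aldh1a1, a retinoic acid forming enzyme, stood at 70.3, 41.4 and 52.7 CPM. The low Rbp2 of the mutant libraries thus stood beside higher Isx and Stra6 in the same libraries.

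Other apolipoprotein genes were scarce, with 3 of 11 tested in LApc. Apoc4, the neighbour of Apoc2, was 16.2-fold higher there (1.82, 29.5 and 0.124 CPM). Apoo and Apool, proteins of the mitochondrial inner membrane in spite of their names, stood at 38.8, 26.6 and 24.2 CPM and at 24.4, 34.9 and 39.0 CPM. Of the other lipid binding proteins 1 of 3 was lower, Rbp7 (22.7, 0.176 and 0.0373 CPM), while Fabp5, the epidermal family member, stood at 47.4, 89.7 and 61.9 CPM and Acbd3 at 43.7, 67.6 and 66.7 CPM. Fabp6, the ileal member, was at 0.900, 0.946 and 0.981 CPM.

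Of the transcription factors known for such genes, 7 of 18 were lower in LApc and 8 of 19 in LApcL, and none was higher. Creb3l3, a membrane-bound factor known for Apoa4 and Apoc2 in liver and gut, went from 161 CPM to 0.0550 and 0.0124 CPM. Mlxipl, a carbohydrate-responsive factor, went from 178 to 7.22 and 8.61 CPM, and Hnf4g from 102 to 9.79 and 15.9 CPM. Hnf4a, its relative, stood at 95.2, 52.2 and 71.6 CPM, and Cdx2 at 96.3, 75.6 and 162 CPM, all less than 4-fold apart. The nuclear receptor genes Ppara, Nr1h3 and Nr1h4 were lower in both libraries, and Maf in LApcL (47.9, 30.5 and 6.72 CPM). Gata4, known from the upper small intestine, was at 47.8 CPM in WT, with 2 UMIs in LApc and 1 in LApcL. The part of the gut from which each culture came is not given in the sources used here, and it cannot be told apart from genotype for any of the 9 genes. With median-of-ratios size factors in place of totals, the all-gene median moved from 0.52 to 0.10 (LApc) and from 0.54 to 0.16 (LApcL), the lower share of all 4-fold calls from 37.5% to 48.9% and from 39.5% to 51.6%, and 9 of 9 genes still met the call.

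**Figure D5:**
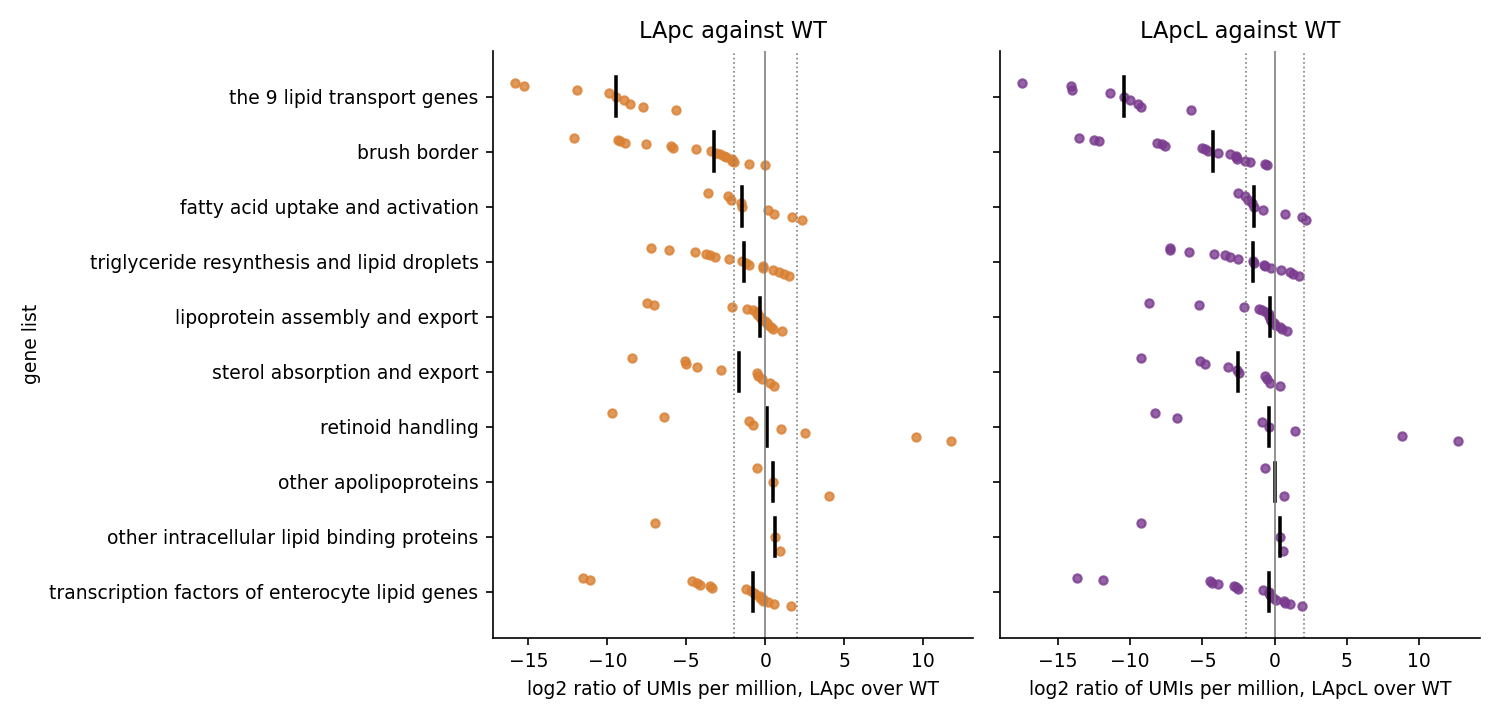
Log2 ratio of LApc and of LApcL to WT, by CPM, for the 9 genes and for genes of the pathway lists that reach 10 CPM in either library (1 library per group), with a point per gene, bars at list medians and dotted lines at 4-fold. The 9 genes lie between −17.49 and −5.67, and genes at 0 UMIs are drawn at the floor of 3 counts.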

How the data were processed

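The authors made droplet-based 10x 3′ libraries and deposited whole-number UMI counts per gene and barcode, with no normalisation, on mm10 (GRCm38). The submitters' notes and the study's methods name Cell Ranger 2.1.1, while the file headers name Cell Ranger 6.0.1, and that difference bears on which barcodes were called as cells. All deposited barcodes had at least 500 UMIs. The 9 genes, the marker and pathway lists and the comparisons were chosen with earlier results of these data known, and an overlap of the lists with those results is no independent support. Some alternatives, named with the results they change, were added after seeing the data.

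Counts were summed over deep cells (at least 10000 UMIs, at most 20% from 13 mitochondrial genes, barcode in 1 library only) and scaled to CPM, which leaves out shallow barcodes and those high in mitochondrial UMIs, where the balance of these genes differed. Intervals are 95%: exact Poisson (levels), exact conditional binomial (ratios) or Clopper-Pearson (shares), and cover counting error only. Genes at 0 were set to 3 counts. Calls over all genes used those that reached 10 CPM in either library, and a limit of 4-fold (2-fold between ranges). Spread, ranges and correlations used cells thinned to 10000 UMIs (seed 1). Doublets were kept, and removing the highest Scrublet scores (scanpy 1.11.5, 0.8% per 1000 barcodes) was an alternative, because Scrublet's own threshold marked 0, 1 and 2 barcodes. Genes named in the text are the 9, in each pathway list the 2 with the highest WT level and those past 4-fold whose role is sure, and the 10 genes most correlated with the 9. A few genes that this rule names are not reported here. Some further genes and cells are said, where they are named, to be chosen after their values were seen. Others, such as Hnf4a, Cdx2 and Fabp6, were named outside this rule. Alternatives were depth limits of 5000 and 20000 UMIs, a mitochondrial limit of 10%, size factors, totals without the 50 most abundant genes, a pseudocount of 1 CPM, other minimum levels, no thinning, equal weight per cell and 3 ranges. Scripts ran in Python 3.11.15 with numpy 2.4.6, scipy 1.17.1, pandas 2.3.3 and matplotlib 3.10.9, and were tested on simulated data.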

Additional observations from a re-analysis of the deposited data

How the results depend on the processing

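Each ratio of the 9 genes was recomputed under 11 alternatives, of which leaving out, for each gene, the cell with the most of its UMIs was chosen after seeing the data. All 99 values of LApc against WT and all 99 of LApcL against WT stayed at least 4-fold lower, and 9 of 9 genes met the call each time. Their size did depend on the setting, with 25 and 18 of the 99 values outside the counting interval of the reported value. With a pseudocount of 1 CPM the medians of −9.47 and −10.44 became −7.70 and −8.17, and Fabp1 went from −15.27 and −17.49 to −12.86 and −13.09. With equal weight per cell Apoc2 went from −9.23 to −8.04 in LApcL. All 88 values of LApcL against LApc stayed lower, but the median of −1.49 became −0.24 with a pseudocount of 1 CPM, and lay between −1.52 and −1.03 otherwise. The count of genes at least 4-fold lower there, 2, became 0 with a 10% mitochondrial limit, with the highest Scrublet scores removed and with the pseudocount, and 1 without the top cells. With no minimum level the share of all genes called lower was 9.50% in place of 5.54% (LApc), 11% in place of 5.75% (LApcL) and 6.11% in place of 1.45% (LApcL against LApc), since far more genes with few UMIs enter. The median correlation of 0.55 became 0.59 with the 10% limit and 0.66 without thinning. It was 0.54 over the 1136 WT cells left without 72 cells rich in goblet, enteroendocrine or Paneth markers, a choice made after seeing the data, and all 9 genes stayed at least 2-fold higher in the highest range. The median share of WT cells with a UMI over the 9 genes, 86.7%, became 79.9% with 5000 UMIs per cell, 79.3% with the 10% limit and 75.7% after thinning, 3 settings added after seeing the data. No ratio of the 9 genes changed direction, nor did their median correlation or their difference between ranges. The balance of all 4-fold calls in LApcL against WT did turn, from 39.5% lower to 51.6% lower with size factors. The pathway lists and the correlations within ranges were not recomputed under these alternatives. No paired analysis was possible because each group is 1 library, and for the same reason no replicate could be left out. Few UMIs limit several ratios: Fabp1, Apoa4 and Apoc3 had 21 UMIs or fewer in each mutant library, as did Apob and Rbp2 in LApcL.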

Other observations

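Among the 241 WT cells of the highest brush border score, the genes closest to Apoa1 were Crip1, an intestinal cysteine-rich protein gene (r = 0.71), Cyp2c29, a cytochrome P450 (0.68), and Guca2b, which encodes the gut peptide uroguanylin (0.65). The genes closest to Fabp1 in the same cells were Leap2 (0.61) and Ckb, a creatine kinase (0.56), and the lowest with Fabp1 included Cyp2j6 (−0.39) and Guca2a, which encodes guanylin (−0.38). The lowest with Apoa1 was the ribosomal protein gene Rpl12 (−0.59). Cyp2c29 was at 247 CPM in WT and had 0 UMIs in LApc and LApcL, and Guca2b was at 558, 13.6 and 30.7 CPM. These genes were chosen after their values were seen, and the r values describe cells of 1 library.

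WT barcodes outside the deep cells carried the 9 genes in other proportions. In 1784 barcodes of 1 library with fewer than 10000 UMIs, Fabp1 stood at 15.1% of its deep-cell level, while Apoa1 stood at 89.4%, Mttp at 96.7% and Apob at 147%. In 427 deep barcodes with over 20% mitochondrial UMIs, Fabp1 stood at 37.0% of its deep-cell level, Apoa4 at 108%, Mttp at 116%, Apoa1 at 146% and Apob at 167%. The balance of Fabp1 to Apob reported for deep cells is thus not that of the whole library.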
